A study of Mus musculus with 12 samples.

Results

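The genes described here are 10 markers of Kupffer cells and of macrophages in general: Marco, Clec4f, Vsig4, Cd5l, Timd4, Lyz2, Fcgr3, Adgre1, Csf1r and C1qa. They were found by gene symbol among the 19938 genes that the array annotation names, with the older name Emr1 accepted for Adgre1, and each gene was represented by the probe that was brightest on average over the 12 arrays. The livers of 12 male C57BL/6J mice were measured, with 1 array per animal. The mTERT KO group held 3 first-generation (G1) knock-outs of the telomerase reverse transcriptase, and the mTERT WT group 3 wild-type littermates. The mTR KO group held 3 first-generation knock-outs of the telomerase RNA, and the mTR WT group 3 wild-type littermates. Each line came as 3 sets of littermates, which gives 6 litters, and the set number is written after the group name below. Ages were matched but not stated, no animal was treated, and which part of either gene was deleted is not given in the sources used here. First-generation knock-outs come from parents that still had telomerase, so they lack the enzyme without a history of shortened telomeres over generations.

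Kupffer cells are the resident macrophages of the liver. They sit inside the sinusoids, the capillaries of the liver, where they take up bacteria, dead cells, aged erythrocytes and immune complexes from portal blood. The transcription factor PU.1, encoded by Spi1, and the growth factor receptor encoded by Csf1r sustain all macrophages, and MAF family factors take part in the program of resident macrophages. Clec4f, Vsig4, Timd4, Marco and Cd5l mark Kupffer cells in the mouse liver, while Lyz2, Fcgr3, Adgre1, Csf1r and C1qa are shared with macrophages and monocytes elsewhere. In whole liver, fewer cells of a type and less RNA per cell cannot be told apart.

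Promoter sequence was available for 7 of the 10 genes in RefSeq, assembly GRCm38.p6. Of these 7, Marco and Cd5l are shown because they followed the other members most closely across arrays, Clec4f and Fcgr3 because they followed them least. Each line gives the 250 bases before the transcription start in the direction of the gene. They lie at chr1:120505025-120505274 on the minus strand for Marco, chr3:87357631-87357880 on the plus strand for Cd5l, chr6:83656117-83656366 on the minus strand for Clec4f and chr1:171059404-171059653 on the minus strand for Fcgr3, where the more upstream of a pair of listed starts was used. Capitals mark GAGGAA, the core of the PU.1 motif, and TGCTGA, the core of the MAF motif, read on either strand, so that TTCCTC and TCAGCA are the same letters on the opposite strand.
Marco: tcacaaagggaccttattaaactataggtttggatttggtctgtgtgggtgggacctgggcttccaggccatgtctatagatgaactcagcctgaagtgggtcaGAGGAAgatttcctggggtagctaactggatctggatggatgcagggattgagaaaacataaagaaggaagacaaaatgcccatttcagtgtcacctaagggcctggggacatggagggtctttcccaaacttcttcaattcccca
Cd5l: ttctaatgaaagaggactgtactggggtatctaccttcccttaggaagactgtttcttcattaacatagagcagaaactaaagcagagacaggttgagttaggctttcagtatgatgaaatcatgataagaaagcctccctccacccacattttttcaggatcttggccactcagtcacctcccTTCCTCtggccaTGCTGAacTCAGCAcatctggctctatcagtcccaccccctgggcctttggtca
Clec4f: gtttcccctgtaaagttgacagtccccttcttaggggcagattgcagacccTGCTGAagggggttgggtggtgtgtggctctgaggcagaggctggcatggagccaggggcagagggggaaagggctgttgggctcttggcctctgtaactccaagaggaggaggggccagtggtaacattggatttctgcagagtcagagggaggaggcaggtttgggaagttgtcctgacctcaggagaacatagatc
Fcgr3: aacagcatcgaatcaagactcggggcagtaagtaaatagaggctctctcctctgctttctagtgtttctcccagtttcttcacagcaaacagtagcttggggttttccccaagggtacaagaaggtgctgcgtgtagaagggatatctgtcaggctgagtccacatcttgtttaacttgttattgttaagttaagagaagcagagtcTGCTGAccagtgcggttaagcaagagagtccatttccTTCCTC
The core GAGGAA was found in 4 of the 7 promoters, at position −146 in Marco, −66 in Cd5l and −6 in Fcgr3, counted back from the start, and also in Vsig4. It occurs in 25.9% of the 27025 genes with a window of this length. The core TGCTGA was found in 5 of 7, among them Clec4f at position −199 and Fcgr3 at −43, against 18.0% of all genes. The longer PU.1 motif GAGGAAGT was in none of the 7, against 2.79% of all genes. These are matches of letters in one window and show no binding.

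Before the members are described, several arrays need naming, because they stood apart for other tissues. The mean log2 intensity of 11 pancreas acinar genes reached 9.79 in mTERT KO 1, 7.50 in mTERT WT 1 and 8.95 in mTERT WT 2. It was 11.24 in mTR KO 1 and 6.98 in mTR WT 2, while the remaining 7 arrays gave 3.86 to 4.06. Skeletal muscle genes averaged 6.92 in mTERT WT 1 and 6.56 in mTERT WT 3, acute phase genes 10.80 in mTERT WT 1, and interferon-response genes 5.63 in mTERT KO 3 and 6.23 in mTERT WT 3, where no other array exceeded 5.37. The background level was set at 4.34, the mean over arrays of the 95th percentile of 1027 olfactory receptor genes, taken as silent in liver. As a check of the labels, Tert averaged 4.05 ± 0.10 in mTERT KO and 4.58 ± 0.39 in mTERT WT (log2 intensity, SD, n = 3 each), with overlapping arrays, and Terc, the telomerase RNA, averaged 4.13 ± 0.24 in mTR KO and 4.20 ± 0.07 in mTR WT, both below background, so neither gene could check the labels of single arrays. All 10 member genes had means above the background level in all 4 groups, so they were detected, although Marco in the mTR line lay close to it. Detection in whole liver does not show which cells gave the signal. Pancreas acinar genes also exceeded background in at least 1 group in 11 of 11, and skeletal muscle genes in 12 of 12. Defining genes of other blood cells were near background: 0 of 11 neutrophil genes, 0 of 7 B cell genes, 1 of 10 T and NK cell genes, 2 of 8 dendritic cell genes and 1 of 8 monocyte-derived macrophage genes exceeded it in any group. Endothelial and stellate cell genes of the sinusoid, which lie next to Kupffer cells, were above it in 11 of 11 and 10 of 10.

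**Figure D1:**
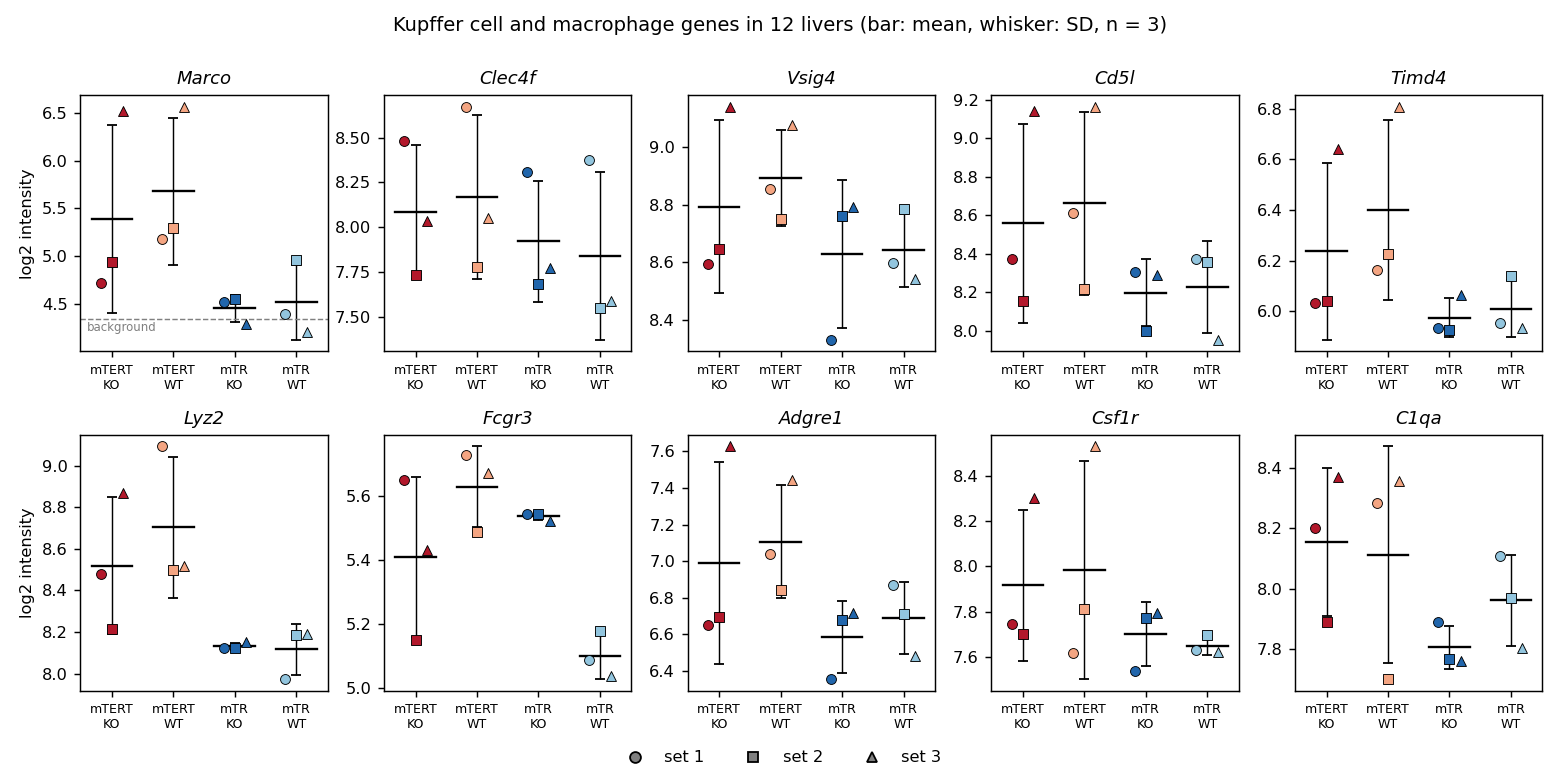
Log2 intensity of the 10 member genes, 1 panel per gene, with the mTERT line left of the mTR line, KO left of WT in each line, and 1 point per array. Bars are means and whiskers SD (n = 3 per group), point shapes give the set, and the dashed line in the Marco panel is the background level of 4.34. In 7 panels the arrays of mTERT set 3 are the 2 highest.

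Receptors and secreted proteins that bind microbial surfaces are given first. Marco, a scavenger receptor of Kupffer cells, read 4.71, 4.94 and 6.52 in mTERT KO and 5.18, 5.30 and 6.56 in mTERT WT. It read 4.52, 4.55 and 4.29 in mTR KO, against 4.39, 4.96 and 4.21 in mTR WT. KO and WT overlapped in both lines, the arrays of mTERT set 3 stood more than 1 log2 unit above the other 10, and in the mTR line mTR KO 3 and mTR WT 3 lay below background. Cd5l encodes a secreted protein of macrophages that binds bacterial and fungal surfaces. It read 8.37, 8.15 and 9.14 in mTERT KO against 8.61, 8.21 and 9.16 in mTERT WT. In the mTR line it read 8.31, 7.996 and 8.29 in KO against 8.37, 8.36 and 7.95 in WT. The pair of mTERT set 3 was again highest, and the KO and WT ranges overlapped in each line.

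Clec4f, a lectin receptor that in the mouse liver is restricted to Kupffer cells, followed another order. Its values were 8.48, 7.74 and 8.04 in mTERT KO and 8.67, 7.78 and 8.05 in mTERT WT. In mTR KO they were 8.31, 7.68 and 7.77, and in mTR WT 8.38, 7.55 and 7.59. The set 1 array was the highest of its group in all 4 groups, whatever the genotype. Vsig4, a complement receptor that captures opsonized particles from blood, read 8.60, 8.65 and 9.14 in mTERT KO and 8.86, 8.75 and 9.08 in mTERT WT. It read 8.33, 8.76 and 8.79 in mTR KO, against 8.60, 8.79 and 8.54 in mTR WT, with all groups overlapping. Timd4 encodes a receptor for phosphatidylserine, the lipid that marks dying cells, and is a marker of long-lived resident Kupffer cells. Its values were 6.03, 6.04 and 6.64 in mTERT KO and 6.16, 6.23 and 6.81 in mTERT WT. In the mTR line they lay between 5.93 and 6.06 in KO and between 5.94 and 6.14 in WT, a narrower range than in the mTERT line.

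Csf1r, the receptor for the cytokines CSF1 and IL-34 on which macrophages depend, read 7.75, 7.70 and 8.30 in mTERT KO and 7.61, 7.81 and 8.53 in mTERT WT. In the mTR line it read 7.54, 7.77 and 7.80 in KO against 7.63, 7.70 and 7.62 in WT. Apart from the 2 arrays of mTERT set 3, all values lay between 7.54 and 7.81. Adgre1, an adhesion receptor widely used to mark mouse macrophages, read 6.65, 6.69 and 7.63 in mTERT KO and 7.04, 6.84 and 7.44 in mTERT WT. It read 6.36, 6.68 and 6.72 in mTR KO, against 6.87, 6.71 and 6.48 in mTR WT, again with overlap in both lines.

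Among effector genes, Lyz2, the macrophage lysozyme that cleaves bacterial cell walls, read 8.48, 8.21 and 8.87 in mTERT KO and 9.09, 8.50 and 8.52 in mTERT WT. It was lower and tighter in the mTR line, at 8.12, 8.12 and 8.15 in KO and 7.97, 8.19 and 8.19 in WT. Every mTR array lay below every mTERT array for Lyz2. That held for no other member, and for 0.104% of the tested probes in this direction. The margin was narrow, with mTR WT 3 at 8.188 and mTERT KO 2 at 8.214, and this split was singled out after the values were seen. C1qa, a chain of the complement recognition protein C1q that macrophages secrete, read 8.20, 7.89 and 8.37 in mTERT KO and 8.28, 7.70 and 8.36 in mTERT WT. In mTR KO it read 7.89, 7.77 and 7.76, against 8.11, 7.97 and 7.80 in mTR WT, with overlap in both lines.

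Fcgr3 encodes an activating receptor for immunoglobulin G through which macrophages take up immune complexes. It read 5.65, 5.15 and 5.43 in mTERT KO and 5.73, 5.49 and 5.67 in mTERT WT. In mTR KO it read 5.54, 5.54 and 5.52, and in mTR WT 5.09, 5.18 and 5.04. The mTR KO arrays all lay above the mTR WT arrays, with almost no spread among themselves (SD 0.0122), while in the mTERT line the groups overlapped and the KO was the lower in each litter.

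Loss of mTERT was the first comparison, which asks what absence of the catalytic part of telomerase does in liver. Differences of the members were small and pointed down in 9 of 10. The largest in size was that of Marco, at −0.29 (log2, KO minus WT, SE 0.456), and the only one above 0 was that of C1qa, at 0.041 (SE 0.175). The median of the 10 was −0.11, where the median over all probes was 0.012 and 54.4% of probes lay above 0. Marco, Clec4f, Cd5l, Timd4 and Fcgr3 were lower in KO in 3 of 3 litters, with Timd4 at −0.16 (SE 0.191) and Fcgr3 at −0.22 (SE 0.124). These SEs come from a fit without a litter term, so they hold the spread between litters. Within litters Timd4 differed by −0.13, −0.19 and −0.17. In set 3 Marco, Clec4f and Cd5l differed by only −0.043, −0.014 and −0.019, and Timd4 and Fcgr3 by −0.17 and −0.24. The share of all probes lower in 3 of 3 litters is not given here. In the litter of set 1 Lyz2 differed by −0.62 and Adgre1 by −0.39, but by 0.35 and 0.19 in the litter of set 3. Genes of other tissues and programs differed in the same comparison: skeletal muscle genes were lower in mTERT KO in 12 of 12 (median −1.67), acute phase genes in 12 of 12 (median −0.55), pancreas acinar genes in 11 of 11 (median −0.70) and interferon-response genes in 8 of 9 (median −0.23). Sinusoidal endothelial genes were higher in 11 of 11 (median 0.14). Muscle genes had an unadjusted limma p under 0.05 in 12 of 12, against 1.4% of all probes. That held for 1 of 12 acute phase genes, 1 of 9 interferon-response genes and no pancreas or endothelial gene. By adjusted p limma called none of these genes, and their part in the members' differences was not tested.

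By limma, a linear model with moderated variances fitted to all probes, 0 of 10 members passed in mTERT KO against WT at an adjusted p under 0.05, against 0% of the 20197 probes, and 0 of 10 had an unadjusted p under 0.05, against 1.4%. KO and WT arrays were separated without overlap for 0 of 10, against 4.33% of probes. For 9 of 10 members the 95% interval stayed inside a 2-fold change, and for Marco it ran from −1.29 to 0.71.

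**Figure D2:**
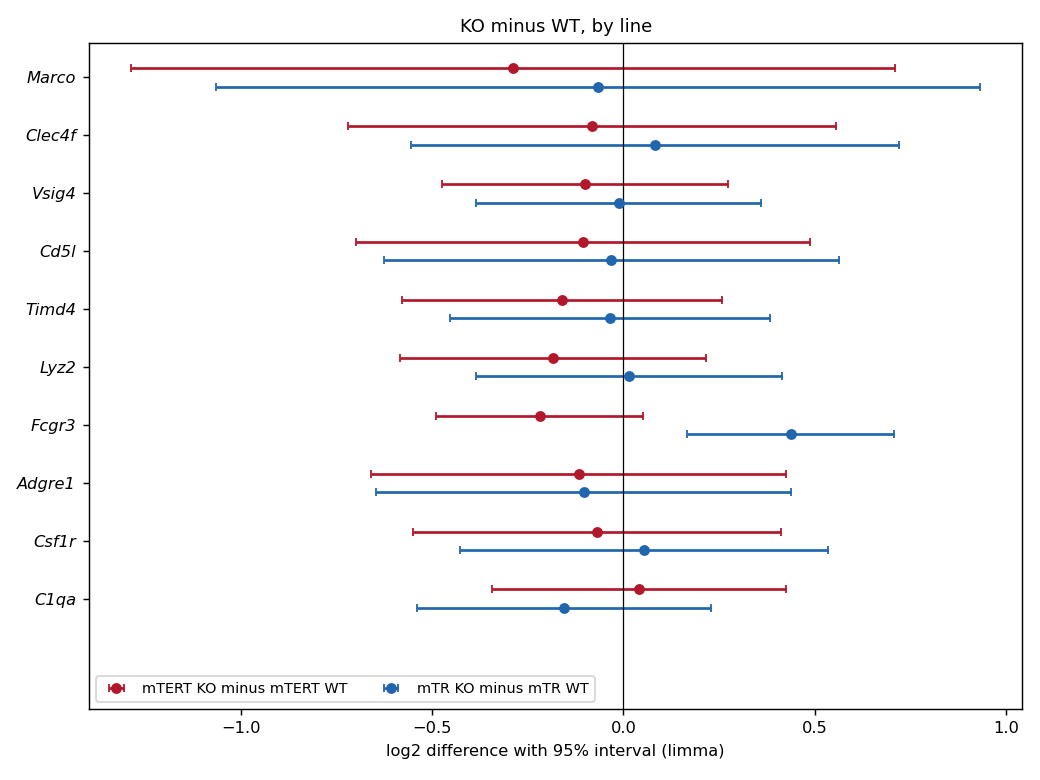
Log2 difference of each member between KO and WT (x axis), with its 95% limma interval, in the mTERT line (upper, red) and the mTR line (lower, blue). The interval of Fcgr3 in the mTR line, 0.17 to 0.71, is the only one that leaves out 0.

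Loss of mTR addresses the same question for the RNA part of telomerase. Fcgr3 was 0.44 higher in mTR KO than in mTR WT on the log2 scale (SE 0.124, 95% interval 0.17 to 0.71), at 5.54 ± 0.0122 against 5.10 ± 0.0726 (SD, n = 3 each). Its differences in the 3 litters were 0.46, 0.36 and 0.49. The other 9 members lay between −0.16 for C1qa (SE 0.175), which was lower in KO in 3 of 3 litters, and 0.082 for Clec4f (SE 0.291). Marco was at −0.066 (SE 0.456), Timd4 at −0.035 (SE 0.191) and Lyz2 at 0.014 (SE 0.182). The median of the 10 was −0.022, where that of all probes was −0.010.

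None of these passed the test either: 0 of 10 members, against 0% of all probes, had an adjusted p under 0.05 by limma. Fcgr3 was 1 of 10 with an unadjusted p under 0.05, against 0.965% of probes, and 1 of 10 with no overlap between KO and WT, against 4.48%. Its unadjusted limma p of 0.00446 ranked 6 among 20197 probes and corresponds to an adjusted p of 1.00. Again the 95% interval stayed inside a 2-fold change for 9 of 10 members, the exception being Marco, at −1.06 to 0.93.

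The difference between both knock-out effects, mTR minus mTERT, was tested as an interaction in the same model. For Fcgr3 it was 0.66 (SE 0.175, 95% interval 0.27 to 1.04, unadjusted limma p 0.00302, adjusted p 1.00), made of 0.44 in the mTR line and −0.22 in the mTERT line. Leaving out any 1 array kept it between 0.53 and 0.78. For C1qa the difference was −0.20 (SE 0.248). The remaining members lay between 0.013 for Adgre1 and 0.22 for Marco, all within their errors. Here too 0 of 10 passed by limma, against 0% of probes, and 1 of 10 had an unadjusted p under 0.05, against 1.45%.

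The other genes of the Fc gamma receptor group had smaller differences than Fcgr3 in the mTR line. Fcgr1, the high-affinity activating receptor, differed by 0.10 (SE 0.212) in mTERT KO and by −0.037 in mTR KO, each against its WT. Fcgr2b, the inhibitory receptor, which liver endothelium also expresses, differed by 0.14 (SE 0.161) and −0.087, and Fcgr4, a further activating receptor, by −0.15 (SE 0.216) and −0.040. Fcer1g, the signalling chain that the activating receptors share, differed by 0.014 (SE 0.312) in mTERT KO and 0.042 in mTR KO. None of the 4 passed in either line by limma. Fcgr4 read 6.65 in mTERT WT 3 and Fcer1g 8.11 there, the highest values of either gene. The Fcgr genes resemble each other in sequence, and whether the Fcgr3 probe also reads its relatives was not tested.

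**Figure D3:**
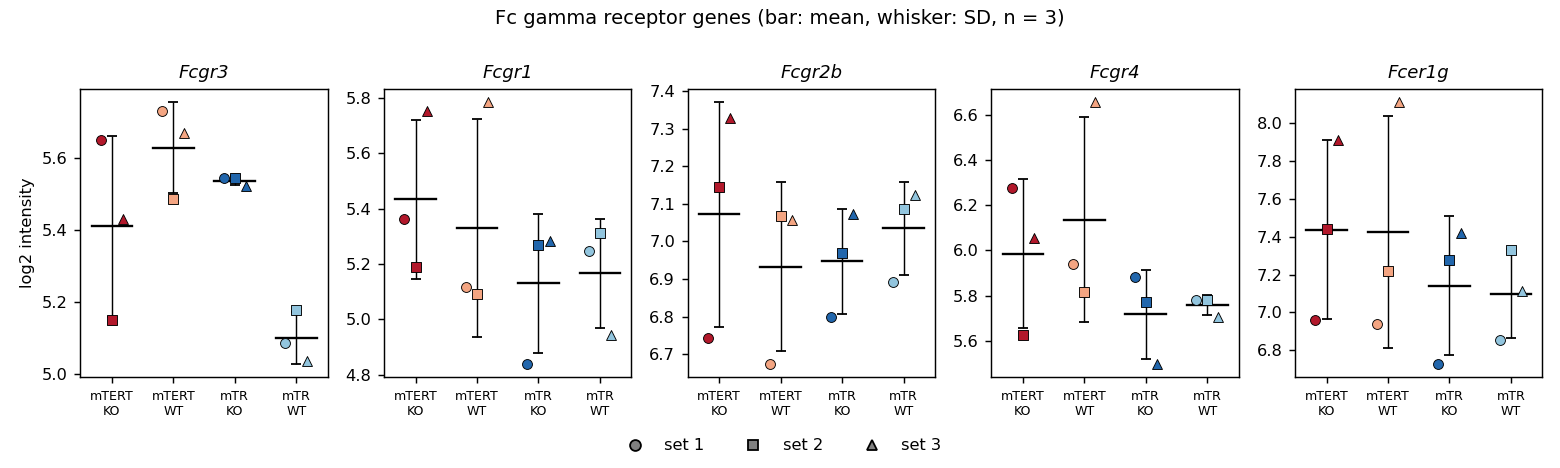
Log2 intensity (y axis, own scale per panel) of Fcgr3, Fcgr1, Fcgr2b, Fcgr4 and Fcer1g, KO left of WT within the mTERT and then the mTR line, with 1 point per array, point shapes for the sets, bars for means and whiskers for SD (n = 3). Only in the Fcgr3 panel do the mTR KO arrays, at 5.52 to 5.54, all lie above the mTR WT arrays, at 5.04 to 5.18.

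Between the lines the median difference of the members was larger in size than between genotypes, which was not tested as such. Among wild types all 10 members were lower in the mTR line than in the mTERT line, with a median log2 difference of −0.40, where the median of all probes was 0.012. Marco differed by −1.16 (SE 0.456), at 4.52 ± 0.393 in mTR WT and 5.68 ± 0.769 in mTERT WT (SD, n = 3 each). Lyz2 differed by −0.59 (SE 0.182), at 8.12 ± 0.123 in mTR WT and 8.70 ± 0.338 in mTERT WT, and Fcgr3 by −0.53 (SE 0.124), at 5.10 ± 0.0726 and 5.63 ± 0.126. Cd5l, Adgre1 and Timd4 followed at −0.43, −0.42 and −0.39, and C1qa was the smallest at −0.15 (SE 0.175). Genes of other tissues and programs were lower in mTR WT as well: skeletal muscle genes in 12 of 12 (median −1.80), pancreas acinar genes in 11 of 11 (median −1.87), acute phase genes in 12 of 12 (median −0.58) and interferon-response genes in 9 of 9 (median −0.45). Muscle genes had an unadjusted limma p under 0.05 in 12 of 12 and the adjusted p called none. Their part in the members' differences was not tested.

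Among knock-outs the same comparison, added after the values were seen, gave 9 of 10 below 0 with a median of −0.31, beside −0.0054 over all probes. Marco was at −0.94 (SE 0.456), Adgre1 at −0.41 (SE 0.247), Lyz2 at −0.39 (SE 0.182) and C1qa at −0.35 (SE 0.175). Fcgr3 was the exception, at 0.13 (SE 0.124). Sinusoidal endothelial genes were also below 0 in 11 of 11 between the knock-outs (median −0.23) but in 8 of 11 between the wild types (median −0.047). Between the knock-outs skeletal muscle genes were below 0 in 9 of 12 (median −0.089), acute phase genes in 9 of 12 (median −0.045) and interferon-response genes in 6 of 9 (median −0.084), while pancreas genes were above 0 in 11 of 11 (median 0.51). The part of these genes in the result was not tested. Without mTERT KO 3 the difference between knock-outs was −0.37 for Marco, −0.21 for Lyz2, −0.087 for Adgre1, −0.067 for Cd5l, −0.061 for Timd4 and −0.021 for Csf1r, and Vsig4 was at 0.0078.

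No member passed in either comparison of lines: limma called 0 of 10, against 0% of probes, in both, with an adjusted p of 1.00 throughout. Between the wild types Marco, Lyz2 and Fcgr3 had an unadjusted p under 0.05, 3 of 10, against 1.15% of probes in this direction, and these 3 with Timd4 were separated without overlap, 4 of 10, against 2.33%. Between the knock-outs 0 of 10 had an unadjusted p under 0.05, against 1.9%, and Marco and Lyz2 were separated, 2 of 10, against 3.26% in this direction. The wild types of the lines are not littermates, so line, colony and litter cannot be told apart here. Without the wild-type array of mTERT set 3 the difference between wild types was −0.72 for Marco, −0.25 for Adgre1, −0.18 for both Cd5l and Timd4, −0.16 for Vsig4, −0.063 for Csf1r and −0.031 for C1qa, while all 10 stayed below 0. Without mTERT WT 1 that of Clec4f was −0.076.

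**Figure D4:**
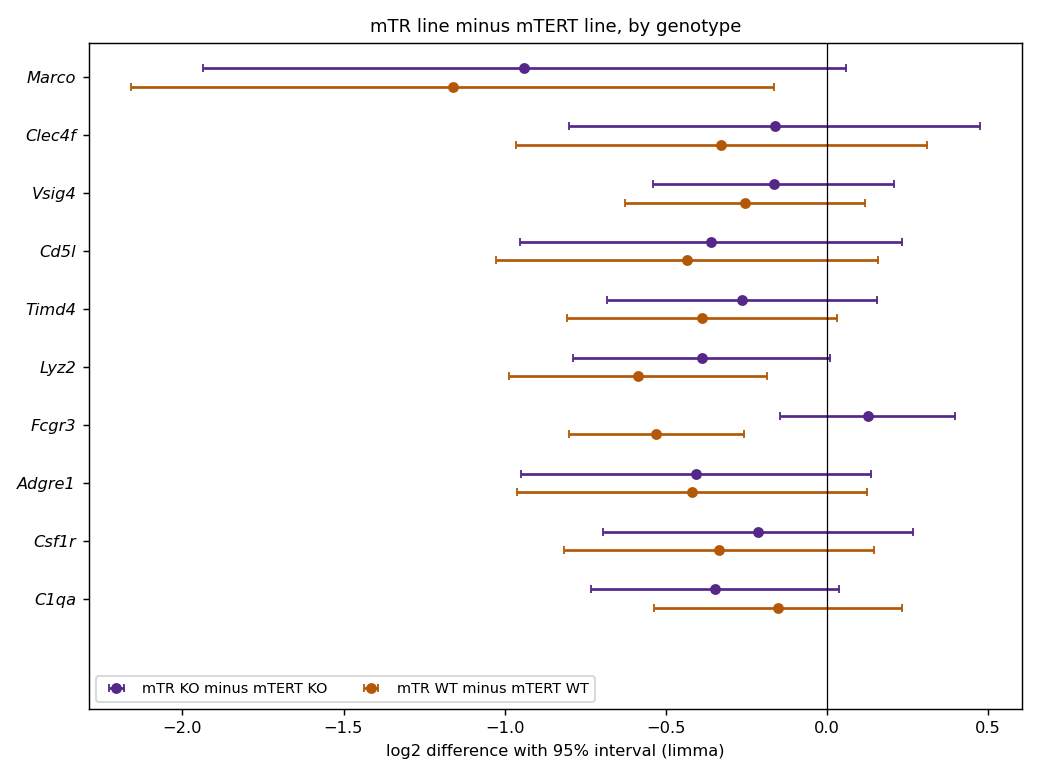
Log2 difference of each member between the mTR line and the mTERT line (x axis), with its 95% limma interval, for knock-outs (upper, purple) and wild types (lower, orange). Every point lies below 0 except that of Fcgr3 in knock-outs, at 0.13.

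Ordered by group mean, 9 of the 10 members were highest in mTERT WT and C1qa was highest in mTERT KO. The lowest group was mTR KO for 6 members and mTR WT for 4. Neighbours in this order mostly differed by less than the pooled SD within groups. A gap larger than that SD occurred once each for Marco (0.87 against an SD of 0.66), Lyz2 (0.39 against 0.24) and Fcgr3 (0.31 against 0.145). For Marco and Lyz2 this gap fell between the lines, and for Fcgr3 it fell between mTERT KO and mTR WT.

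One litter held the highest values of most members. The arrays mTERT KO 3 and mTERT WT 3 were the 2 highest of the 12 for Marco, Vsig4, Cd5l, Timd4, Adgre1, Csf1r and C1qa. That is 7 of 10 members, against 4.46% of the tested probes. This pattern was picked from the members' own values, and these members vary together, so the share is a description only. The mean of the 10 members reached 7.81 in mTERT KO 3 and 7.82 in mTERT WT 3, with 6.94 to 7.52 in the other arrays. In that litter interferon-response genes were also the highest, and muscle genes were high in its WT alone, at 6.56 against 3.97 in mTERT KO 3. Their part in the result was not tested. Hepatocyte genes averaged 12.80 and 12.81 in these arrays, within their range of 12.74 to 12.88 over all 12.

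**Figure D5:**
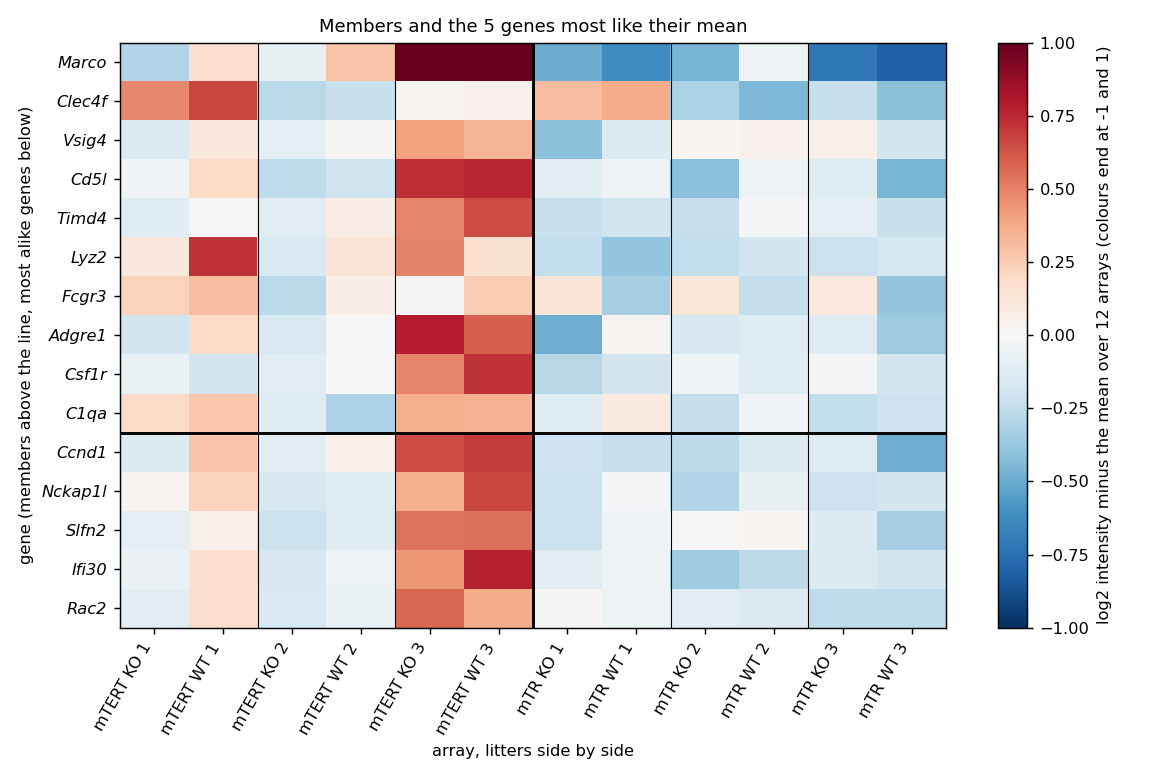
Genes (rows) by array (columns), coloured by the log2 intensity minus the gene's mean over the 12 arrays, on a scale that ends at −1 and 1. Rows above the line are the members. Those below it are Ccnd1, Nckap1l, Slfn2, Ifi30 and Rac2, which are not members and were picked as most like the members' mean. The columns of mTERT KO 3 and mTERT WT 3 are red for most members, the set 1 columns are red for Clec4f, and in the mTR columns most members are blue or pale.

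Members varied together across the 12 arrays, as a description over arrays that share litters and set. Of 45 pairs of members 43 had a Pearson correlation above 0, with a median of 0.63 and a range of −0.083 to 0.96. Cd5l (0.94), Adgre1 (0.90) and Marco (0.89) correlated most with the mean of the other 9, and Fcgr3 (0.47) and Clec4f (0.28) least. Without the litter of mTERT set 3, over 10 arrays, 40 pairs were above 0 and the median was 0.42, with a range of −0.43 to 0.83. Over those 10 arrays the member mean correlated at 0.87 with the mean of skeletal muscle genes and at 0.86 with that of acute phase genes. It correlated at 0.64 with other Kupffer cell genes and at 0.59 with general macrophage genes. Over all 12 arrays these values were 0.65, 0.44, 0.90 and 0.89 in the same order. Without mTERT set 3 the CSF1 axis and scavenger receptor lists, members left out, gave 0.77 each, and monocyte-derived genes 0.72. C1q genes gave 0.71, Fc gamma receptor genes −0.047 and lipid-associated genes −0.096. Among the 10 arrays mTERT WT 1 had the highest member mean (7.52), with muscle at 6.92 and acute phase at 10.80. The others reached at most 4.52 and 9.43, and correlations without mTERT WT 1 are not given here. The correlation of Csf1r with the other members was 0.78 with the litter of mTERT set 3 and 0.025 without it. The order of the members changed as well. Without that litter Lyz2 (0.81) and Cd5l (0.77) correlated most with the mean of the other 9, and Csf1r and Vsig4 (0.39) least. Marco was then at 0.58, Fcgr3 at 0.54 and Clec4f at 0.51.

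The genes whose pattern was most like the mean of the standardized members, among 13180 named genes over the 12 arrays, were Ccnd1, Nckap1l, Slfn2, Ifi30 and Rac2. Ccnd1, which encodes cyclin D1, had a Pearson correlation of 0.97 and a Spearman correlation of 0.83, and read 7.48 in mTERT KO 3 and 7.53 in mTERT WT 3, against 6.34 to 7.12 elsewhere. Nckap1l, an actin regulator of blood cells, correlated at 0.93, and Slfn2, a growth regulator of immune cells, Ifi30, a lysosomal thiol reductase, and Rac2, a small GTPase of blood cells, at 0.92 each. Without the litter of mTERT set 3 these values were 0.90 for Ccnd1, 0.84 for Nckap1l, 0.66 for Slfn2, 0.75 for Ifi30 and 0.73 for Rac2.

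Set number, read from the number that ends each label, separated Clec4f. Clec4f rose by 0.68 on the log2 scale in set 1 (SE 0.0781), at 8.46 in set 1 and 7.78 in sets 2 and 3, with a limma adjusted p of 4.87e-05. It was the only member that passed, 1 of 10, against 38.2% of all probes and 17.1% in this direction, so a call is common in this comparison. The set 1 array was the highest of all 4 groups for 15.3% of probes. Of the others, Marco was at −0.47 (SE 0.305), Csf1r at −0.27 and Vsig4 at −0.22, and none passed. Without the 5 arrays that carried pancreas transcript the difference of Clec4f was 0.79 with a limma adjusted p of 0.0975, a fit in which set 1 keeps only mTR WT 1, whose spread is assumed to be that of the other arrays. Animals of set 1 within a line are littermates, and with the litter as a random block the difference was 0.68 (limma adjusted p 7.16e-05).

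Other genes of Kupffer cells gave no separate picture of genotype. Of 17 listed, 15 were measured, and limma called 0 in either line. Their median was 0.015 in mTERT KO and 0.015 in mTR KO, each against its WT, with 8 and 9 of 15 above 0. Slc40a1, which encodes ferroportin, the exporter that returns iron from engulfed erythrocytes, was 0.19 above WT in mTERT KO (SE 0.238) and −0.16 in mTR KO. Clec1b, a lectin receptor, was at 0.037 and −0.22, Slc15a3, a lysosomal transporter of small peptides, at −0.28 (SE 0.221) and 0.079, and Folr2, a folate receptor, at −0.11 and 0.010. Between wild types 13 of the 15 were lower in the mTR line, with a median of −0.17, and between knock-outs 11 of 15, with a median of −0.11. In set 1, 2 of the 15 passed as higher and 4 as lower, a share near the 38.2% of all probes called there. Clec1b was among the lower, and fell by 0.48 (limma adjusted p 0.000959).

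General macrophage genes were also lower in the mTR line by value, and none passed for genotype. Limma called 0 of the 20 measured in either line, and 14 of 20 were below 0 in mTERT KO (median −0.061) and 12 of 20 in mTR KO (median −0.023). In mTERT KO Mpeg1, a pore-forming protein of phagosomes, was at −0.39 (SE 0.324), Lilrb4a, an inhibitory receptor, at −0.26 (SE 0.139) and Ctss, the protease cathepsin S, at −0.23 (SE 0.205). Most of the Mpeg1 value came from the litter of set 3, at −1.36, against −0.032 in set 1 and 0.23 in set 2. Between wild types all 20 were lower in the mTR line (median −0.28), and between knock-outs 19 of 20 (median −0.21). None of the 20 passed by limma in either comparison of lines. In set 1, 1 passed as higher, C1qb, and 7 as lower, again near the 38.2% of all probes called there.

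The partners of C1qa can be set beside it, since C1q is built from the products of C1qa, C1qb and C1qc. C1qb was at −0.21 (SE 0.205) and C1qc at −0.13 (SE 0.282) in mTERT KO, lower in 3 of 3 litters each, while C1qa was at 0.041. In mTR KO they were at 0.023 and −0.00076, while C1qa was at −0.16. C1qb rose by 0.35 in set 1 (limma adjusted p 0.0275), C1qc was at 0.40 (adjusted p 0.0836) and C1qa, at 0.17 in that comparison, did not pass either. The chains differed in sign between genotypes by amounts within their errors.

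For the CSF1 axis, the ligands, the receptor and the transcription factors that act with it, limma called 0 of the 6 genes tested in either line. Csf1, the main ligand, was at −0.14 (SE 0.164) in mTERT KO and −0.011 in mTR KO, each against its WT, beside −0.069 and 0.053 for Csf1r. Spi1, which encodes PU.1, was at −0.072 and −0.0077, Irf8, a partner factor of PU.1, at −0.13 and −0.023, and Cebpa, a factor that hepatocytes use as well, at 0.058 and −0.048. Il34, the other ligand, averaged below background in each of the 4 groups, and Runx1 was below background and was not tested. Spi1 itself stood near background, with its highest values, 4.79 and 4.91, in mTERT KO 3 and mTERT WT 3, the litter in which the members were highest. Cebpa rose in set 1 by 0.32 (limma adjusted p 0.0168).

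Some other scavenger receptors are shared between Kupffer cells and the sinusoidal endothelium, and which cells gave each signal was not tested. Limma called 0 of the 8 genes tested in either line, Marco and Cd163 among them. Scara5, a ferritin receptor, was at −0.54 (SE 0.515) in mTERT KO, where mTERT WT 1 read 6.99 and mTERT KO 1 5.72 against 4.53 to 5.20 in the rest of the line. Msr1, the class A scavenger receptor, was at −0.054 in mTERT KO and −0.20 in mTR KO, Mrc1, the mannose receptor, at 0.15 and −0.046, and Cd36, a fatty acid and lipoprotein receptor, at −0.092 and −0.14. Against sets 2 and 3, Msr1 fell by 0.57 in set 1 (limma adjusted p 0.000341), Mrc1 by 0.38 (adjusted p 0.00055) and Cd36 by 0.31 (adjusted p 0.0138), while Stab1, which encodes stabilin-1, rose by 0.38 (adjusted p 0.0057). These are 4 of the 8 tested, where 38.2% of all probes were called.

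Genes of macrophages that arrive from blood were close to the limit of detection. Only Plac8, expressed in monocytes, exceeded background among the 8 measured, and it was at −0.16 (SE 0.316) in mTERT KO and 0.038 in mTR KO, with its highest value, 5.96, in mTERT WT 3. Ccr2, the receptor that brings monocytes into tissue, lay below background throughout, at 3.86 in KO and 4.06 in WT of the mTERT line and at 4.01 in KO and 3.98 in WT of the mTR line. Of the lipid-associated macrophage genes, 6 of 8 were tested and limma called none. Cd63, a membrane protein of lysosomes, was at −0.43 (SE 0.185, unadjusted limma p 0.0392, adjusted p 1.00) in mTR KO, whose mean of 4.05 was below background. Lgals3, a galectin, was at −0.25 (SE 0.153) in mTERT KO and 0.19 in mTR KO, Cd9, a tetraspanin, at 0.23 and −0.22, and Fabp5, a fatty acid carrier, at 0.24 (SE 0.563) and −0.021. Fabp5 ranged from 5.502 in mTERT KO 1 to 8.01 in mTERT KO 3, a wider spread within 1 group than any difference between groups.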

How the data were processed

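Total RNA from whole liver was measured on 12 one-colour Affymetrix arrays, 1 per animal. The values are log2 intensities as deposited by the authors in the series table, and GCOS 1.4, PLIER and Affymetrix Expression Console are listed, per the submitters' processing notes, with no role for any of them. The normalization is not given in the sources used here, and the log base was read as 2, since values ran between 2.62 and 13.83. Array medians lay between 4.37 and 4.43, and the number of arrays sets the precision.

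Of 28853 probe sets, called probes, 21789 had 1 gene symbol, 1621 several and 5443 none, and 21698 took current names from RefSeq (GRCm38.p6) through their Entrez identifier. Each member had 1 probe, so probes of a gene could not disagree. Probes whose mean reached the 30th percentile (3.898) were tested, which left 20197. A single limma fit (3.58.1, R 4.3.3) of 4 group means gave the comparisons, with two-sided tests, p-values adjusted by Benjamini-Hochberg over all 20197 probes and a threshold of 0.05. The comparison of sets added a term for set 1. SE is the moderated standard error. The main fit had no term for litter although KO and WT of a set were littermates. Its SEs, intervals and p-values therefore include the spread between litters and do not use the pairing. The fit was tested on simulated data with independent noise per array and no litter effect. That checks the estimates, not the error rates on arrays that share sets and litters. Alternatives were quantile normalization, median centring, other filters, other variance priors, array weights, a mean of all probes of a gene, a fit of the groups compared alone, a litter or set block, leaving out each array, and leaving out set 1.

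The named genes are the 10 members, all genes of the Fc gamma receptor, C1q and CSF1 lists, up to 4 genes with the smallest unadjusted p from each other macrophage list, and the 5 genes most like the members. Cebpa, Msr1 and Clec1b in set 1, Mpeg1 by litter, and Ccr2 were singled out after their values were seen. The members and lists were chosen with earlier results of these data known. The comparison between the knock-outs, and the fits without the pancreas-bearing arrays or without the litter of mTERT set 3, were chosen after seeing the data. The same holds for the pattern of mTERT set 3 as the highest arrays. It also holds for the split of mTR from mTERT arrays in Lyz2. A planned comparison of protein sequences was not made.

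The series text states that WT and KO of a set were littermates, and the number in each label was read as the set. With group means removed, the correlation between KO and WT arrays that share a number was 0.692, 0.135 and 0.623 (mTERT) and 0.458, 0.151 and 0.552 (mTR). The KO of set 2 was closer to WT 3 than to WT 2 in both lines, at 0.416 (mTERT) and 0.464 (mTR). Set 1 differed from sets 2 and 3 at 38.2% of probes, and set differences were not removed here. These correlations therefore cannot show which animals were littermates, in any set.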

Additional observations from a re-analysis of the deposited data

Results flagged for a closer look

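The Fcgr3 difference between KO and WT was above 0 in the mTR line and below 0 in the mTERT line. In the mTERT line its 95% limma interval, −0.49 to 0.052, included 0, so a decrease is not shown there. The mTERT litters ranged from −0.34 in set 2 to −0.079 in set 1. In the mTR line KO exceeded WT in 3 of 3 litters (0.44, SE 0.124), and in the mTERT line KO was below WT in 3 of 3 (−0.22, SE 0.124), a difference of 0.66 on the log2 scale (SE 0.175). The test of that difference, the limma interaction, gave an unadjusted p of 0.00302, and an adjusted p of 1.00 over 20197 probes, so it does not pass. With the litter as a block the adjusted p was 0.751. It was 1 of 10 members with an unadjusted p under 0.05, against 1.45% of probes. Leaving out 1 array gave −0.34 to −0.089 in mTERT KO against WT, nearest 0 without mTERT KO 2, and 0.40 to 0.48 in mTR KO against WT. The mTR KO arrays, at 5.52 to 5.54, lay within the mTERT range of 5.15 to 5.73. The mTR WT group had the lowest mean of the 4, with arrays at 5.04 to 5.18, and mTERT KO 2, at 5.15, lay within that range.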

How the results depend on the processing

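The call of a member changed in 1 case: without the 5 pancreas-bearing arrays Clec4f in set 1 had a limma adjusted p of 0.0975 at a difference of 0.79. Of 1194 recomputed member values 1127 kept direction and call and 66 turned sign, of which 40 came from leaving out 1 array, and none of those 66 was called before. All 10 differences between wild types kept their sign under every alternative run. The cause of the changes below was not tested. Leaving out 1 array also left its littermate unpaired.

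Counts of called probes over the whole array were 1 without set 1 in both KO comparisons, and 1 with array weights between the knock-outs. Leaving out 1 array gave 0 to 41 in mTERT KO against WT, 0 to 30 for the difference between KO effects, 0 to 42 between wild types, each highest without mTERT WT 2, and 5831 to 7660 for set 1. The set 1 count was 5010 with the mean of all probes of a gene, where fewer tests are made, and 272 without the pancreas-bearing arrays.

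With the replicate block for the litter, which the series text supports, limma still called 0 probes in either KO comparison, and Fcgr3 in mTR KO had an unadjusted p of 0.000532 and an adjusted p of 0.999. No other call of a member changed under a block.

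Signs turned as follows. In mTERT KO against WT, without set 1 Lyz2 was at 0.032 and Adgre1 at 0.019, and without the litter of set 3 Csf1r at 0.011. In mTR KO against WT, Vsig4 was at 0.013 after quantile normalization. With array weights Marco was at 0.033, Vsig4 at 0.12, Cd5l at 0.067, Timd4 at 0.0075, Lyz2 at −0.025 and Adgre1 at 0.075. Without set 1 Vsig4 was at 0.11, Lyz2 at −0.052 and Adgre1 at 0.10. Without mTR KO 1 and mTR WT 2 Marco was at 0.12, Clec4f at −0.26, Vsig4 at 0.21, Timd4 at 0.050 and Adgre1 at 0.023. For set 1, Cd5l was at −0.011 after median centring, and without the pancreas-bearing arrays Marco was at 0.18, Vsig4 at 0.055, Timd4 at 0.020, Lyz2 at −0.21, Adgre1 at 0.39 and Csf1r at 0.012. Between the knock-outs, Vsig4 was at 0.0078 without the litter of mTERT set 3.

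Leaving out 1 array in mTERT KO against WT gave −0.85 to 0.15 for Marco, −0.28 to 0.17 for Clec4f, −0.40 to 0.14 for Cd5l, −0.36 to 0.044 for Timd4, −0.36 to 0.011 for Lyz2, −0.44 to 0.054 for Adgre1, −0.26 to 0.20 for Csf1r and −0.17 to 0.17 for C1qa. In mTR KO against WT it gave −0.22 to 0.15 for Marco, −0.11 to 0.35 for Clec4f, −0.094 to 0.14 for Vsig4, −0.17 to 0.069 for Cd5l, −0.079 to 0.029 for Timd4, −0.057 to 0.050 for Lyz2 and −0.21 to 0.010 for Adgre1. The difference between KO effects was −0.33 to 0.010 for C1qa. For set 1 the range was −0.082 to 0.12 for Cd5l and −0.097 to 0.17 for Lyz2. Between the knock-outs it was −0.36 to 0.036 for Clec4f, −0.26 to 0.0078 for Vsig4 and −0.0032 to 0.25 for Fcgr3.

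Signal over background limits Marco in the mTR line, Spi1 and the monocyte genes, whose true differences can be larger than those read. With 3 arrays per group, a missed threshold does not show equal levels.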
